A study of Mus musculus with 18 samples.

Results

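Expression of 10 immediate early genes was followed in lymphatic endothelial cells (LEC), which line lymphatic vessels, and blood vascular endothelial cells (BEC), which line blood vessels, from mouse embryos. The members are Fos, Fosb, Jun, Junb, Jund, Egr1, Egr2, Egr3, Atf3 and Ier2, taken by name from the array annotation, and each was measured by 1 row among the 19938 genes with a single symbol. The study used 18 arrays (Affymetrix Mouse Gene 1.0 ST), 3 in each of 6 groups, which were the 2 cell types at embryonic days 14.5, 16.5 and 18.5 (E14.5, E16.5, E18.5). Per the design text, LEC and BEC of an age came as matching samples of 3 litters, so replicates are litters. The labels give the tissue only as embryonic, name no strain, genotype or treatment, and describe how the cells were obtained by a citation that was not used here.

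Immediate early genes are transcribed within minutes of a stimulus from factors already present in the cell, without new protein synthesis. The FOS and JUN proteins pair through leucine zippers to form AP-1, which binds DNA as a dimer, and ATF3 is a related zipper protein. EGR1, EGR2 and EGR3 are zinc finger factors that bind GC-rich sites. In endothelium both groups respond to growth factors and to shear stress, and both are known to be induced when tissue is dissociated into cells.

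All values are log2 expression values, on which a difference of 1 is 2-fold. Every member lay above 4.657 on all 18 arrays, the 95th percentile of the values of 1194 olfactory and vomeronasal receptor genes, used here as a bound for dim genes. Levels are not compared between genes, because each is read by other probes. Differences are given with the limma standard error (SE), and a gene is called where the Benjamini-Hochberg adjusted p of limma over the 19938 genes is under 0.05. Values per group are means with the SD of 3 arrays.

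Lymphatic and blood endothelial markers went with the labels. All 7 measured lymphatic endothelial markers were higher in LEC over the 3 ages (median difference 4.03) and all 9 blood endothelial markers were lower (median -3.32). The lymphatic difference was 2.26, 4.14 and 5.09 at the successive ages. Of 8 pan-endothelial genes, 0 were higher and 6 lower in LEC over the 3 ages (median -0.72). At the successive ages 5, 5 and 6 of them were lower. Of all genes, 18.2% were called higher and 19% lower over the 3 ages. Arrays of a group correlated at 0.9863 to 0.9901 at E18.5 and at 0.9927 to 0.9961 at the earlier ages. The interquartile range of the arrays was 3.182 to 3.362 at E18.5 and 3.403 to 3.641 at the earlier ages, so every change to E18.5 goes with a narrower spread of values. Scaling the arrays to one median and interquartile range left 9 members called higher in LEC and 10 in BEC from E14.5 to E18.5. That scaling stretches the E18.5 values away from the median, above which all members lie. It therefore works to enlarge their rises, so these counts are no independent check of them.

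The main pattern was a rise with age in both cell types. From E14.5 to E18.5, 10 of 10 members rose in BEC, where 13.3% of all genes were called higher, and 9 of 10 rose in LEC, where 19.7% were. The median member differed by 1.49 in BEC and 1.52 in LEC, against 0.04 for the median of all genes in each. Ranked from the top among the 19938 changes, Fosb stood at 70, Fos at 106 and Atf3 at 134 in BEC, and Fos at 220, Atf3 at 246 and Egr2 at 248 in LEC. The lowest were Egr3 at 1133 and Junb at 2377 in BEC, and Egr3 at 1980 and Junb at 13419 in LEC. The exception in LEC was Junb, at -0.14 ± 0.14 (adjusted p = 0.45). In these bulk samples a change in the share of cells that express a gene and a change in RNA per cell cannot be told apart. Cells of each age also came from other litters, and the sources used here give no batch or scan date. The part of cell isolation, handling or batch in the rise with age was not tested.

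**Figure D1:**
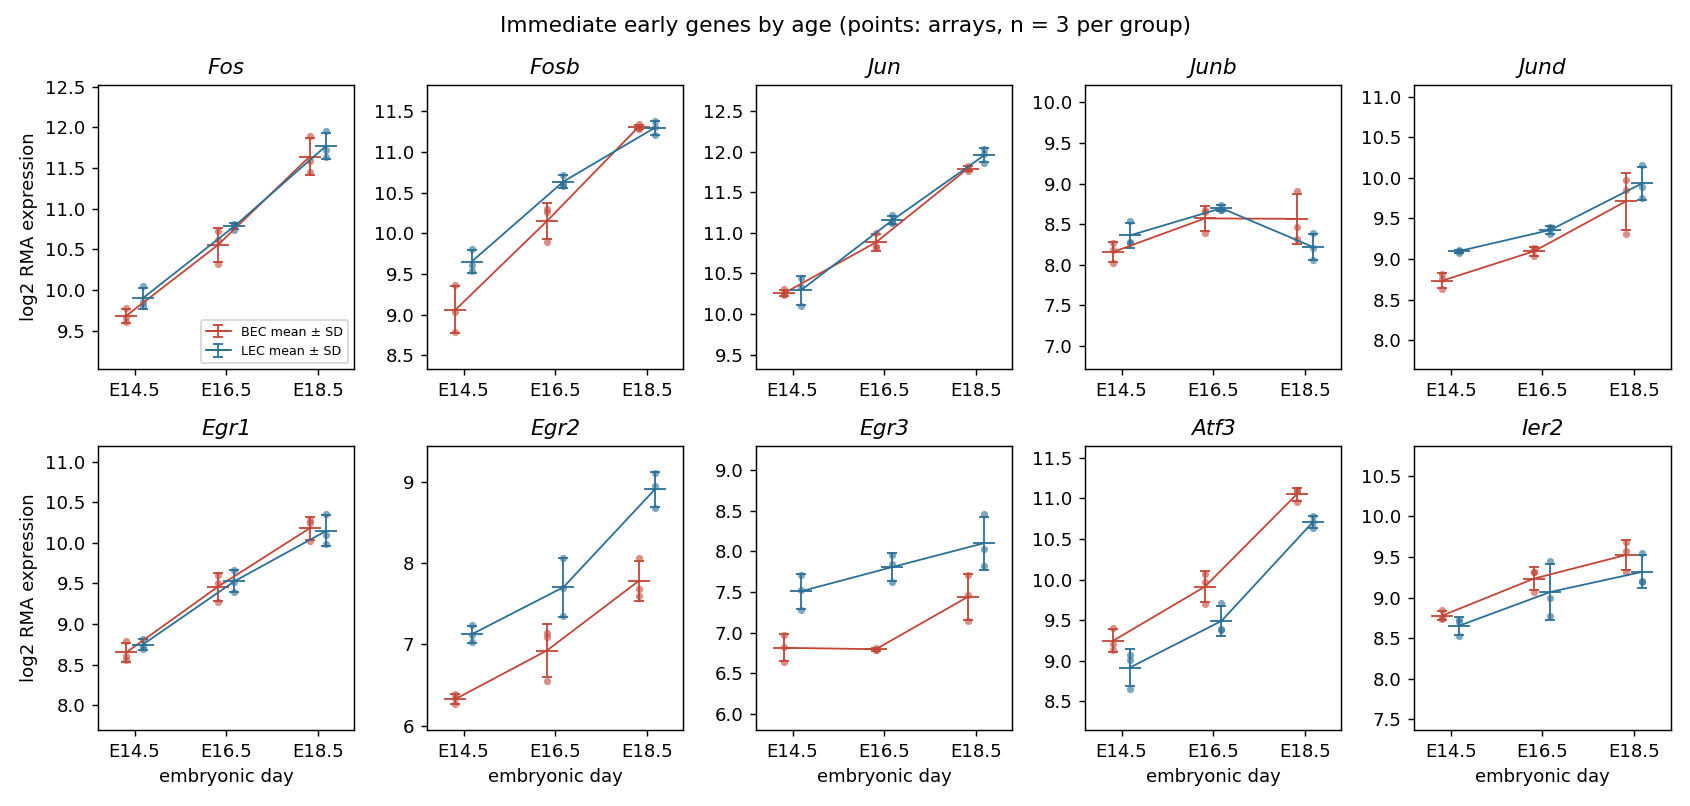
Log2 expression (vertical axis, a span of equal height in each panel) of the 10 genes against embryonic day, with points for the arrays, dashes for group means and bars for the SD (n = 3), BEC in red and LEC in blue. Fos, Fosb, Jun, Egr1 and Atf3 climb in steps in both cell types, Egr2 and Egr3 lie higher in LEC at each age, and Junb ends at 8.22 in LEC at E18.5, below its 8.70 at E16.5.

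Fos, the partner of JUN proteins in AP-1 that cannot form dimers with itself, rose at both steps in both cell types. In BEC its 3 arrays read 9.67, 9.60 and 9.77 at E14.5. They read 10.72, 10.62 and 10.32 at E16.5, then 11.58, 11.89 and 11.45 at E18.5. The 3 ages did not overlap in BEC. In LEC the arrays read 10.04, 9.85 and 9.80 at E14.5, 10.81, 10.81 and 10.74 at E16.5, then 11.95, 11.73 and 11.64 at E18.5, again without overlap. From E14.5 to E18.5 Fos rose by 1.96 ± 0.13 in BEC (3.89-fold, adjusted p = 2.8e-09) and by 1.88 ± 0.13 in LEC (3.67-fold, adjusted p = 2.6e-09). The changes split about evenly over the interval, with 0.87 and 1.09 in BEC and 0.89 and 0.99 in LEC.

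Fosb, the FOS relative that also gives a short splice form, had the largest rise of the members in BEC. Its arrays in BEC read 9.36, 8.78 and 9.03 at E14.5, 10.30, 10.26 and 9.89 at E16.5, then 11.30, 11.34 and 11.29 at E18.5. In LEC they read 9.60, 9.81 and 9.54, then 10.61, 10.58 and 10.72, then 11.38, 11.31 and 11.21. LEC arrays therefore lay above all BEC arrays at E14.5 and E16.5, and the cell types overlapped at E18.5. Fosb rose by 2.25 ± 0.13 in BEC (4.77-fold, adjusted p = 1.1e-09) and by 1.65 ± 0.13 in LEC (3.14-fold, adjusted p = 2.1e-08). The difference between these changes was -0.60 ± 0.19 and missed the threshold (adjusted p = 0.056). It passed without BEC E14.5 replicate 1 (-0.76, adjusted p = 0.013), with BEC E16.5 replicate 3 left out (adjusted p = 0.041), and under 5 other settings (adjusted p = 0.014 to 0.04).

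RefSeq promoter windows were in the table for 7 of the 10 members, and the 250 bases before the start site are shown for the FOS genes, which rose together in both cell types. Both strands were searched for the CRE (TGACGTCA), which CREB and ATF factors bind (1.55% of 32851 windows of this length), the AP-1 site (TGANTCA, 6.75%), the EGR site (GCGNGGGCG, 4.7%) and the serum response element (SRE or CArG box, 1.47%). Capitals mark matches, and no matches overlapped. Only exact matches within these 250 bases were sought, so a variant site or one farther from the start would not be found. The Fos window, at chr12:85473640-85473889 of GRCm38.p6 on the plus strand, held no exact match to any of the 4 motifs. The Fosb window, at chr7:19310046-19310295 on the minus strand, held 1 EGR site that begins 50 bases before the start.

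Fos: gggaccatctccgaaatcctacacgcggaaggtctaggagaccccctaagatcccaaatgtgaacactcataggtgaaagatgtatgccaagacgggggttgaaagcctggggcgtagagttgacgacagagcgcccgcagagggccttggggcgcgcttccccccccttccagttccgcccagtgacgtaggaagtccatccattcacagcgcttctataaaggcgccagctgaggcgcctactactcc

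Fosb: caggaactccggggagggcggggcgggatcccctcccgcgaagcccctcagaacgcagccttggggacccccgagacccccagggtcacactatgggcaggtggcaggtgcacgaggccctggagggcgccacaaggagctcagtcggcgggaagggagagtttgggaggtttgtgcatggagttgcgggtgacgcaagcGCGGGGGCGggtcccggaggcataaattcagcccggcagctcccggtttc

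Jun, the founding JUN protein, which can pair with itself or with FOS, rose at both steps in both cell types. Its BEC arrays read 10.24, 10.30 and 10.23 at E14.5, 10.84, 11.00 and 10.81 at E16.5, then 11.82, 11.76 and 11.79 at E18.5. LEC arrays read 10.33, 10.45 and 10.10, then 11.22, 11.13 and 11.12, then 11.98, 12.03 and 11.86. No 2 ages overlapped within a cell type. Jun rose by 1.53 ± 0.10 in BEC (2.89-fold, adjusted p = 2.4e-09) and by 1.66 ± 0.10 in LEC (3.17-fold, adjusted p = 4.7e-10). The difference of these changes was 0.13 ± 0.14 (adjusted p = 0.67), with a 95% interval of -0.16 to 0.42.

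Jund, the JUN protein that is expressed most widely in resting cells, had its called step after E16.5. Its BEC arrays read 8.63, 8.75 and 8.82 at E14.5, 9.13, 9.12 and 9.04 at E16.5, then 9.85, 9.97 and 9.31 at E18.5. LEC arrays read 9.12, 9.08 and 9.10, then 9.31, 9.40 and 9.37, then 10.16, 9.75 and 9.88. No 2 ages overlapped within a cell type, and BEC E18.5 replicate 3 lay lowest of its group. It rose from 8.73 ± 0.10 to 9.71 ± 0.35 in BEC (0.98 ± 0.14, adjusted p = 2.3e-05) and from 9.10 ± 0.02 to 9.93 ± 0.21 in LEC (0.83 ± 0.14, adjusted p = 7.5e-05). From E16.5 to E18.5 it rose by 0.61 ± 0.14 in BEC (adjusted p = 0.0029) and 0.57 ± 0.14 in LEC (adjusted p = 0.0037). From E14.5 to E16.5 the values of 0.36 in BEC and 0.26 in LEC were not past the test (adjusted p = 0.1 and 0.25), although the 3 arrays of E16.5 lay above those of E14.5 in each. Without the E18.5 arrays in the fit these steps passed (adjusted p = 0.0081 in BEC and 0.031 in LEC), and the step in BEC passed without BEC E18.5 replicate 3 alone (adjusted p = 0.034).

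Junb, a JUN protein that can restrain the activity of JUN, was the member not called higher in LEC. Its LEC arrays read 8.54, 8.26 and 8.28 at E14.5, 8.68, 8.67 and 8.74 at E16.5, then 8.39, 8.21 and 8.06 at E18.5. The 3 arrays of E16.5 were the highest, and those of E14.5 and E18.5 overlapped. From E16.5 to E18.5 Junb fell by 0.48 on the log2 scale in LEC (SE 0.14, adjusted p = 0.013), a call that was lost without LEC E18.5 replicate 3 (-0.40, adjusted p = 0.059) and with a common median and interquartile range (-0.35, adjusted p = 0.069). In BEC the arrays read 8.02, 8.19 and 8.27, then 8.65, 8.67 and 8.39, then 8.47, 8.91 and 8.32. The difference from E14.5 to E18.5 there was 0.41 ± 0.14 (adjusted p = 0.033), all 3 later arrays lying above the earlier ones. That call was lost without BEC E14.5 replicate 1 (0.34, adjusted p = 0.13), BEC E14.5 replicate 2 (0.42, adjusted p = 0.065) or BEC E18.5 replicate 2 (0.23, adjusted p = 0.2). It was also lost in 5 other settings, with adjusted p of 0.054 to 0.085. The difference between the changes in LEC and BEC was -0.55 ± 0.20 (adjusted p = 0.1), and passed without BEC E18.5 replicate 3 (-0.67, adjusted p = 0.041) and with a trended, robust variance (adjusted p = 0.043).

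The Junb promoter is shown as that of the member whose course differed from Fos and Fosb. It lies at chr8:84978749-84978998 on the minus strand and held no exact match to any of the 4 motifs, nor did the windows of Jun, Jund and Atf3.

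Junb: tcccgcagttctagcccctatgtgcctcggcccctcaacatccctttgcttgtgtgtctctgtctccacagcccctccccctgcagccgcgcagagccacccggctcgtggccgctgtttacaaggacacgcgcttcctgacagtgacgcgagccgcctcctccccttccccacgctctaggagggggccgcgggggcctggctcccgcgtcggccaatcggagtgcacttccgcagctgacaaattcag

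Egr1, the most studied of the EGR factors, rose at both steps in both cell types. Its BEC arrays read 8.79, 8.61 and 8.56 at E14.5, 9.51, 9.60 and 9.27 at E16.5, then 10.24, 10.28 and 10.02 at E18.5. LEC arrays read 8.82, 8.69 and 8.73, then 9.67, 9.51 and 9.40, then 10.36, 9.98 and 10.10. LEC and BEC overlapped at each age, and no 2 ages overlapped within a cell type. The rise was 1.53 ± 0.12 in BEC (2.88-fold, adjusted p = 3.1e-08) and 1.40 ± 0.12 in LEC (2.64-fold, adjusted p = 4.4e-08). These rises differed by -0.13 ± 0.17 (adjusted p = 0.75), with a 95% interval of -0.49 to 0.23. The difference between LEC and BEC over the 3 ages was 0.04 ± 0.07 (adjusted p = 0.68), with a 95% interval of -0.10 to 0.19.

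Egr2, a zinc finger factor known from hindbrain patterning and myelination, was both higher in LEC and rising. BEC arrays read 6.38, 6.33 and 6.26 at E14.5, 7.09, 7.14 and 6.54 at E16.5, then 8.06, 7.69 and 7.59 at E18.5. LEC arrays read 7.24, 7.11 and 7.03, then 8.07, 7.70 and 7.35, then 9.11, 8.94 and 8.68. At each age all LEC arrays lay above all BEC arrays. Egr2 was higher in LEC by 0.90 ± 0.10 over the 3 ages (1.87-fold, adjusted p = 6.8e-07), and by 0.80, 0.78 and 1.13 at the successive ages (SE 0.18; adjusted p = 0.0031, 0.0026 and 6.2e-05). From E14.5 to E18.5 it rose by 1.79 ± 0.18 in LEC (3.45-fold, adjusted p = 2.6e-07) and by 1.45 ± 0.18 in BEC (2.74-fold, adjusted p = 5.1e-06). The difference of these changes was 0.33 ± 0.25 (adjusted p = 0.52). Its early step was the less certain one. The change to E16.5 of 0.58 ± 0.18 in LEC (adjusted p = 0.038) was lost without any of 5 single arrays, the 3 LEC arrays of E14.5 and LEC E16.5 replicates 1 and 2 (adjusted p = 0.061 to 0.22). That of 0.60 ± 0.18 in BEC (adjusted p = 0.043) was lost without any of 9 arrays (adjusted p = 0.051 to 0.19), the 3 arrays of E14.5 in each cell type, BEC E16.5 replicates 1 and 2 and LEC E16.5 replicate 2. With a common median and interquartile range both were lost (adjusted p = 0.056 each).

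Egr2 has 5 windows in the RefSeq table, and 4 of them each held 1 SRE, the site of serum response factor. The third in order is shown, because the fourth and the fifth overlap it and hold the same genomic SRE. It lies at chr10:67537619-67537868 on the plus strand, and its SRE, in capitals, begins 72 bases before the start.

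Egr2: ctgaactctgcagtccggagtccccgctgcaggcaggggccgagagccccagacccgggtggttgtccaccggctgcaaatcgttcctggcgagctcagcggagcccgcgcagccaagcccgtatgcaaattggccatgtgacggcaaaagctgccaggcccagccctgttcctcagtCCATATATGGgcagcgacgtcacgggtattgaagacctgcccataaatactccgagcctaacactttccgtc

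Egr3, a factor that EGR1 and calcium signals can induce, was higher in LEC at every age and rose over the whole interval. BEC arrays read 6.97, 6.83 and 6.64 at E14.5, 6.82, 6.79 and 6.78 at E16.5, then 7.71, 7.47 and 7.14 at E18.5. LEC arrays read 7.53, 7.71 and 7.28, then 7.96, 7.84 and 7.62, then 8.46, 7.82 and 8.03. As with Egr2, LEC lay above BEC without overlap at each age. The difference was 0.79 ± 0.10 over the 3 ages (1.73-fold, adjusted p = 1.3e-06), and 0.69, 1.01 and 0.66 at the single ages (SE 0.17; adjusted p = 0.0048, 8.8e-05 and 0.0044). Egr3 rose from E14.5 to E18.5 by 0.63 ± 0.17 in BEC (adjusted p = 0.0067) and 0.59 ± 0.17 in LEC (adjusted p = 0.0071). In BEC the value at E16.5 was that of E14.5 within error (-0.02 ± 0.17, adjusted p = 0.96), and the rise to E18.5 was 0.64 ± 0.17 (adjusted p = 0.007). In LEC neither step alone passed (0.30 and 0.29, adjusted p = 0.27 and 0.18).

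Atf3, a stress-induced zipper protein that often acts as a repressor, rose with age and was the only member called lower in LEC over the 3 ages. BEC arrays read 9.21, 9.14 and 9.40 at E14.5, 9.97, 10.07 and 9.70 at E16.5, then 11.09, 11.10 and 10.95 at E18.5. LEC arrays read 9.08, 8.66 and 9.01, then 9.38, 9.71 and 9.38, then 10.79, 10.71 and 10.64. LEC lay below BEC at E14.5 and E18.5, and at E16.5 the highest LEC array passed the lowest BEC array. The difference over the 3 ages was -0.36 ± 0.08 (1.29-fold lower, adjusted p = 0.00064). It was -0.33, -0.42 and -0.34 at the single ages (SE 0.13; adjusted p = 0.1, 0.021 and 0.059). The call at E16.5 depended on single arrays of that age, with an adjusted p of 0.072 or 0.11 when BEC replicate 1 or 2 was left out and of 0.094 or 0.088 when LEC replicate 1 or 3 was. The value at E18.5 passed in 7 settings (adjusted p = 0.015 to 0.048), the replicate block among them (adjusted p = 0.032), and that at E14.5 in 2 (adjusted p = 0.018 and 0.035), while without LEC E14.5 replicate 2 the latter was -0.20 (adjusted p = 0.45). The rise from E14.5 to E18.5 was 1.80 ± 0.13 in each cell type (3.48-fold in BEC and 3.47-fold in LEC, adjusted p = 9.8e-09 and 5.2e-09). The difference between these rises was 0.00 ± 0.18, with a 95% interval of -0.39 to 0.38.

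Ier2, a small nuclear protein of the early serum response, rose least of the called members in LEC after Egr3. It went from 8.78 ± 0.06 to 9.23 ± 0.14 and 9.52 ± 0.19 in BEC, and from 8.65 ± 0.11 to 9.07 ± 0.35 and 9.32 ± 0.20 in LEC. The rise from E14.5 to E18.5 was 0.75 ± 0.15 in BEC (adjusted p = 0.00082) and 0.66 ± 0.15 in LEC (adjusted p = 0.0015). No single step was called in either cell type. The step to E16.5 was 0.45 in BEC (adjusted p = 0.064) and 0.42 in LEC (adjusted p = 0.076). It passed in 9 settings in BEC (lowest adjusted p = 0.017) and in 3 in LEC (adjusted p = 0.012 to 0.031), among them that without LEC E16.5 replicate 2 (0.57), while it was 0.23 without LEC E16.5 replicate 1 (adjusted p = 0.39). LEC E16.5 replicate 1, at 9.45 against 8.77 and 8.99, made that group wide. Without it the step from E16.5 to E18.5 in LEC was 0.44 (adjusted p = 0.029), against 0.25 with it (adjusted p = 0.22) and 0.10 without LEC E16.5 replicate 2 (adjusted p = 0.67). The difference between LEC and BEC over the ages was then -0.23 (adjusted p = 0.024), against -0.17 (adjusted p = 0.15).

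By step, the same 6 members (Fos, Fosb, Jun, Egr1, Egr2 and Atf3) rose from E14.5 to E16.5 in LEC and in BEC, where 8.07% and 5.1% of all genes were called higher. None was called lower, against 5.72% and 4.66% of all genes. From E16.5 to E18.5 these 6 rose again in both, joined by Jund in LEC and by Jund and Egr3 in BEC, where 15.9% and 15.8% of all genes were called higher. Junb fell at that step in LEC, where 18.5% of genes were called lower. The median step of the members was 0.58 and then 0.64 in LEC, and 0.61 and then 0.79 in BEC. The age changes of LEC and BEC differed past the test for 0 of the 10 members from E14.5 to E16.5 (2.63% of genes called), from E16.5 to E18.5 (3.65%) and over the whole interval (8.85%). At an unadjusted p under 0.05 they differed for 0, 2 and 2 members at these 3 contrasts in the same limma fit, Fosb and Junb both times, against 12.5%, 17.9% and 20.8% of all genes. A p that misses the threshold does not show equal changes, and the 95% interval of Egr2 from E14.5 to E18.5 ran from -0.20 to 0.87.

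**Figure D2:**
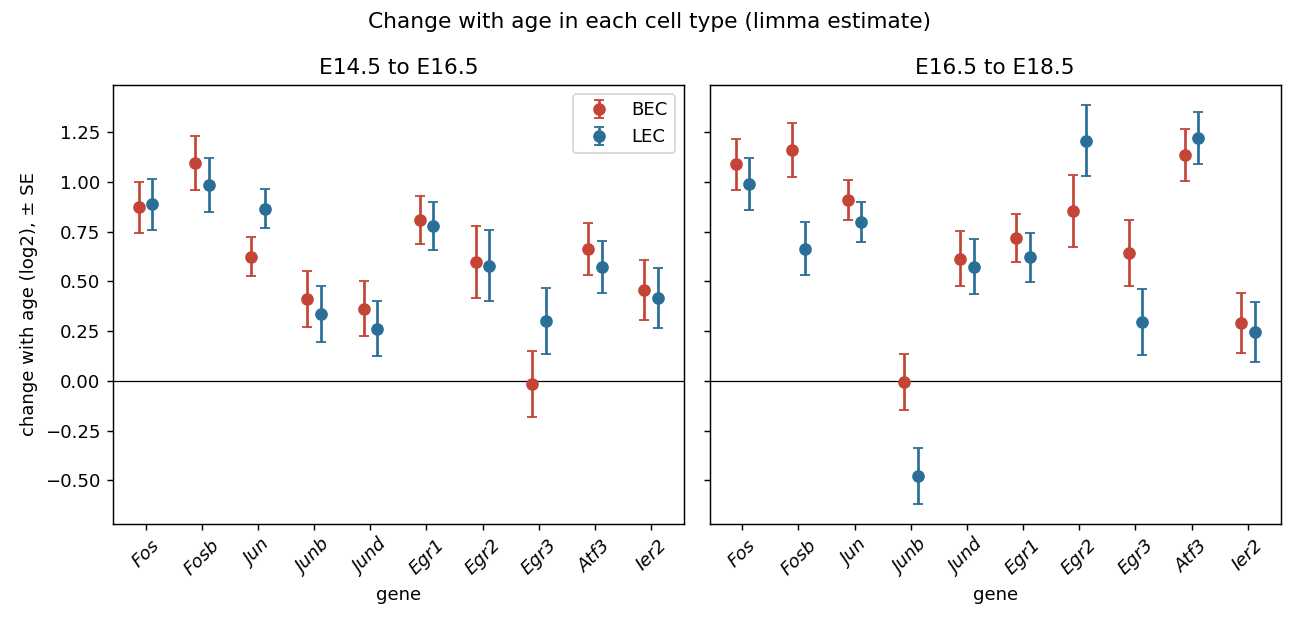
Change with age on the log2 scale (vertical axis, limma estimate with its SE) for the 10 genes, at the step from E14.5 to E16.5 on the left and from E16.5 to E18.5 on the right, BEC in red and LEC in blue. Fos, Fosb, Jun, Egr1, Egr2 and Atf3 lie above 0 at both steps, and Junb in LEC lies at -0.48 at the later step.

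Between LEC and BEC the members did not move as a group. Over the 3 ages 6 were higher in LEC, where 18.2% of all genes were called higher, and 1 was lower, where 19% were. The median difference was 0.18, against -0.02 for all genes. Fosb was higher by 0.36 ± 0.08 (adjusted p = 0.00098) and Jund by 0.28 ± 0.08 (adjusted p = 0.0082). The small differences of Fos (0.19 ± 0.07, adjusted p = 0.049) and Jun (0.16 ± 0.06, adjusted p = 0.038) rested on the full set of arrays. The call of Fos was lost without any of 13 of the 18 arrays (adjusted p = 0.053 to 0.12) and that of Jun without any of 11 (adjusted p = 0.05 to 0.093). Scaled to a common median and interquartile range, Fos lay at 0.13 (adjusted p = 0.21), Jun at 0.09 (adjusted p = 0.29) and Jund at 0.23 (adjusted p = 0.05), which leaves Fosb, Egr2 and Egr3 higher and Atf3 lower.

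At the single ages, 3 members were higher in LEC at E14.5 (8.6% of all genes), Fosb, Egr2 and Egr3, and 0 were lower (7.94%). The same 3 were higher at E16.5 (13%) and Atf3 was lower (12.2%). Jun, whose LEC arrays lay above its BEC arrays at E16.5 (0.27, adjusted p = 0.05), just missed the threshold there and passed in 12 settings (adjusted p = 0.0093 to 0.049), but not with the replicate block (adjusted p = 0.08) or without BEC E16.5 replicate 3 (0.24, adjusted p = 0.16). At E18.5 Egr2 and Egr3 were higher (14.6%) and none was lower (15.9%). Fosb fell out of this set, with successive differences of 0.60, 0.49 and -0.01 (SE 0.13; adjusted p = 0.0031, 0.011 and 0.97). Leaving out BEC E16.5 replicate 3 ended its call at that age (0.36, adjusted p = 0.079). Junb lay at 0.20, 0.13 and -0.35 (SE 0.14) and was called at none of the ages. Its value at E18.5 (adjusted p = 0.069) moved both ways with 1 array left out. It was -0.17 without BEC E18.5 replicate 2 (adjusted p = 0.36), and it passed without BEC E18.5 replicate 3 (-0.47, adjusted p = 0.021) or LEC E18.5 replicate 1 (-0.43, adjusted p = 0.041).

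**Figure D3:**
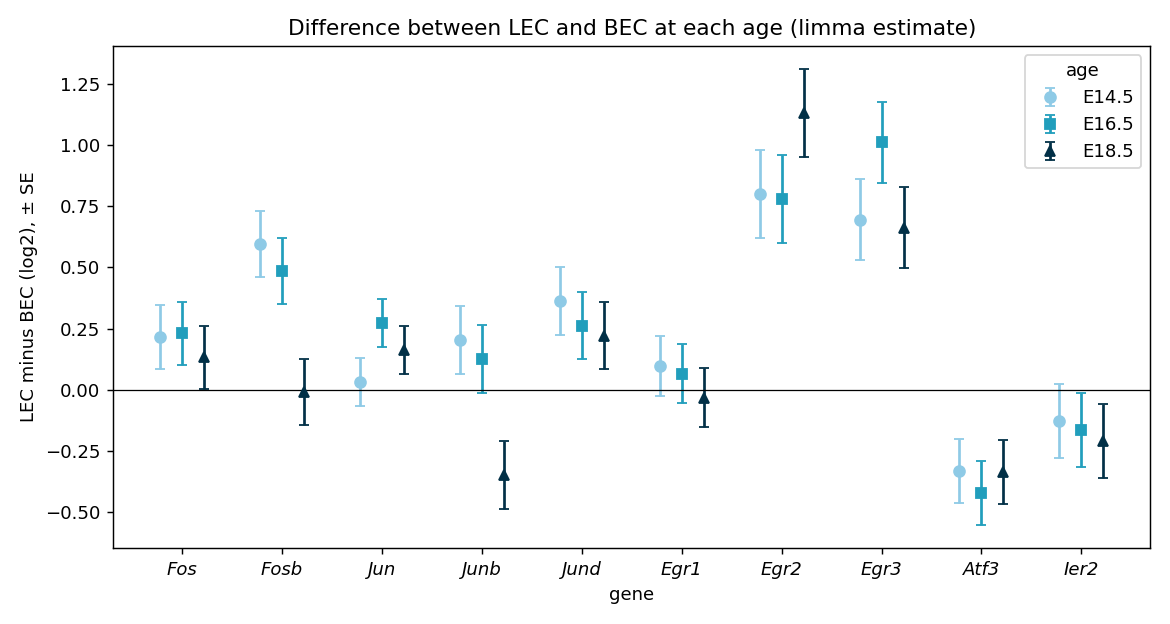
Difference between LEC and BEC on the log2 scale (vertical axis, limma estimate with its SE) for the 10 genes at E14.5 (circles), E16.5 (squares) and E18.5 (triangles). Egr2 and Egr3 lie between 0.66 and 1.13 at all ages, Atf3 lies between -0.42 and -0.33, and Fosb moves from 0.60 to -0.01.

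The order of the 6 group means repeated across several members. For Fos and Jun it ran from BEC to LEC within E14.5, then E16.5, then E18.5, over a range of 2.09 for Fos and 1.70 for Jun. Fosb and Egr1 kept that order with the E18.5 groups exchanged, over 2.25 and 1.53. For Fos and Fosb the only neighbours whose arrays overlapped were LEC and BEC of E18.5, and for Jun those of E14.5. Atf3 and Ier2 ran from LEC to BEC within each age, over 2.13 and 0.87, with 2 and 4 overlapping neighbours. For Egr2 and Jund the LEC groups of E14.5 and E16.5 had higher means than the BEC groups of E16.5, although the arrays of BEC at E16.5 and LEC at E14.5 overlapped. They had 2 and 3 overlapping neighbours in all, and ranges of 2.59 and 1.20. For Egr3 all LEC groups stood above all BEC groups by their means, with overlap between BEC at E18.5 and LEC at E14.5. Junb, with the narrowest range of 0.54, had 4 overlapping neighbours of 5 and no order by age.

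Some arrays also differed from the others of their group in most members at once, while others were mixed. BEC E14.5 replicate 3 was the highest in 4 members and the lowest in 4, and LEC E16.5 replicate 2 in 3 and 3. BEC E16.5 replicate 3 was the lowest of its group in 10 of 10 members, and BEC E18.5 replicate 3 in 9. LEC E18.5 replicate 1 was the highest of its group in 9 members, and LEC E14.5 replicate 1 in 7. Mean deviations over the members reached -0.18 in BEC E18.5 replicate 3 and 0.17 in LEC E18.5 replicate 1. Without BEC E18.5 replicate 3, 10 members rose from E14.5 to E18.5 in BEC, and without LEC E18.5 replicate 1, 9 rose in LEC. After group means were removed, 41 of 45 pairs of members correlated above 0 over the 18 arrays (median r = 0.406, range -0.17 to 0.901). This is a description without a test. The share among pairs of other genes was not computed, nor was the share of all genes highest or lowest on these arrays. The source of the shared deviations was not tested.

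**Figure D4:**
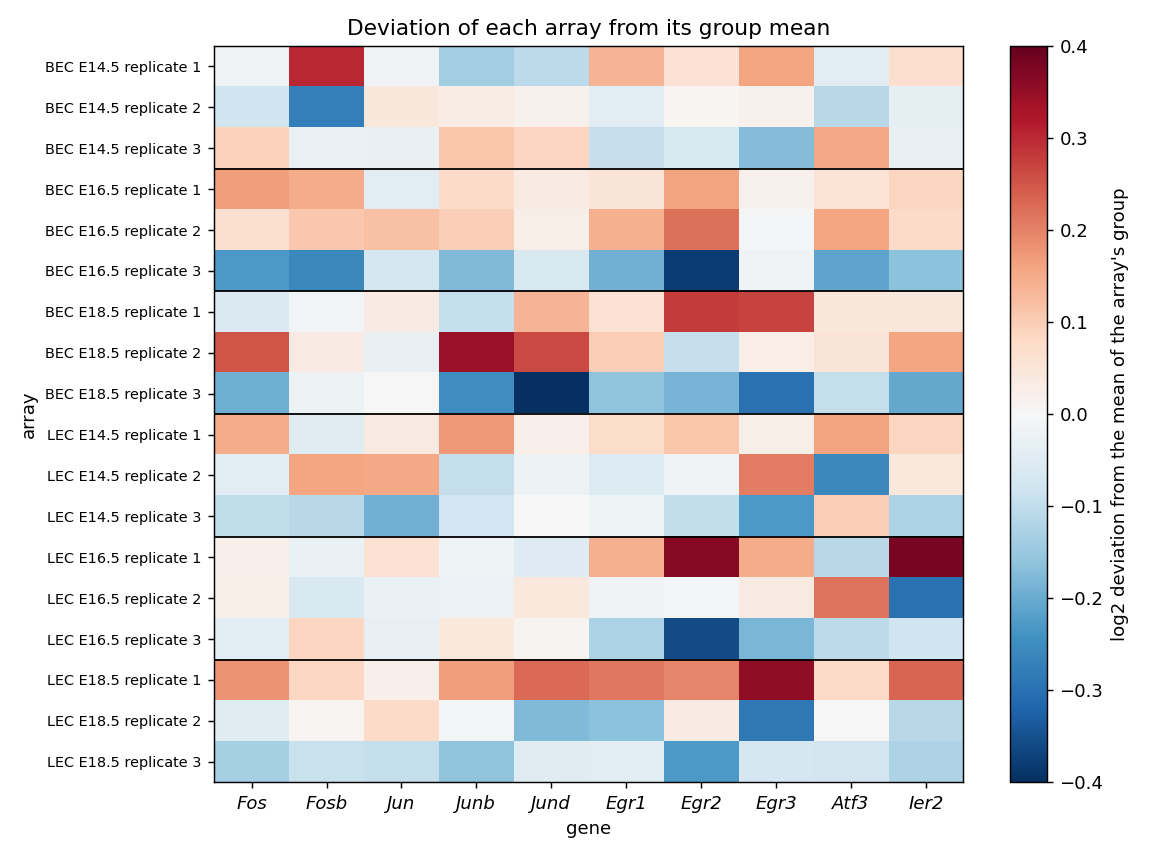
Deviation of each of the 18 arrays (rows, 3 per group between the black lines) from its group mean for the 10 genes (columns), in log2 units from blue (-0.4) to red (0.4). The row of BEC E16.5 replicate 3 is blue throughout, with the lowest value for each gene in its group, and that of LEC E18.5 replicate 1 is red.

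Genes with a course like that of Fos were sought over the 18 arrays among 12983 genes above the dim bound, as a description without a test. The 5 most alike outside the members were Arid5b, Rcan1, a feedback inhibitor of calcineurin, Cdk13, Anxa1 and Ccnl1, with Pearson r of 0.9728 to 0.9653. For Egr1 they were Arid5b, Zfp36, which destabilises mRNAs with AU-rich elements, Anxa1, B4galt1 and Tnrc6c, with r of 0.9768 to 0.9553. These values mix the change with age and the deviations within groups. With group means removed, r with Fos was 0.343 for Rcan1 and -0.351 for Anxa1, and r with Egr1 was 0.707 for Zfp36 and -0.465 for Anxa1. Among the members themselves, Egr1 was the gene closest to Fos (r = 0.9812), followed by Jun (0.9809), while Junb had r of 0.2852 with Fos.

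Many other early response genes also rose with age. Of 32 further immediate early regulators, 22 rose and 1 fell in BEC from E14.5 to E18.5 (median 0.68), and 16 rose and 3 fell in LEC (median 0.39). Over all genes 13.3% were called higher and 17.3% lower in BEC, and 19.7% and 21.2% in LEC. In both cell types Nfkbiz, a nuclear regulator of NF-kB, rose (1.80 ± 0.12 in BEC and 1.48 ± 0.12 in LEC). Zfp36 rose by 1.64 ± 0.14 in BEC, and the Krüppel-like factors Klf4 (1.80 ± 0.17) and Klf6 (1.58 ± 0.10) rose in LEC (adjusted p of these from 7.6e-10 to 9.7e-08). Zfp36, Klf4 and Klf6 also lay higher at E18.5 in the other cell type. Zfp36 changed by 1.31 in LEC. In BEC the Klf4 arrays read 8.04, 7.66 and 8.14 at E14.5, then 9.43, 9.71 and 9.17 at E18.5. Those of Klf6 read 9.82, 9.93 and 9.88, then 10.71, 10.56 and 10.41. Ccn2, a matricellular target of YAP and SRF, fell by 1.72 in BEC (SE 0.12, adjusted p = 6.8e-09), the 1 gene of the list that did.

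The rest of the pathway moved in both directions, as did genes at large. From E14.5 to E18.5, 13.3% of all genes were called higher and 17.3% lower in BEC, and 19.7% and 21.2% in LEC. Of 12 other AP-1 and related zipper genes, 3 rose and 0 fell in BEC (median -0.04), and 2 rose and 2 fell in LEC (median -0.08). Atf2, a partner of JUN, rose by 0.53 ± 0.12 in BEC and 0.67 ± 0.12 in LEC (adjusted p = 0.0018 and 0.00014), and Fosl2, a FOS relative, rose by 0.93 ± 0.17 in BEC (adjusted p = 0.00034). Nab1, a corepressor of EGR factors, rose by 0.47 ± 0.10 in BEC and 0.69 ± 0.10 in LEC (adjusted p = 0.0015 and 2.3e-05), and with Nab2 made 2 of 3 genes of its list in BEC and 1 of 3 in LEC. Of 8 SRF, ternary complex and CREB factors, 3 rose and 1 fell in each cell type. Srf itself, the factor that binds the SRE, fell in LEC by 0.67 on the log2 scale (SE 0.15, adjusted p = 0.0016). Its partner genes Elk4 (0.77 ± 0.10) and Mrtfb (0.90 ± 0.10) rose there. Directions were the same in BEC. Srf arrays in BEC read 8.12, 8.35 and 8.50 at E14.5, then 7.92, 8.04 and 7.67 at E18.5. Those of Elk4 read 7.87, 8.01 and 7.85, then 8.74, 8.83 and 8.70. Those of Mrtfb read 8.80, 8.94 and 8.81, then 9.47, 9.50 and 9.75. Of 16 genes of the MAP kinase cascade and its phosphatases, 4 rose and 3 fell in BEC and 4 rose and 4 fell in LEC. Dusp1, a MAP kinase phosphatase that is itself an early gene, rose by 1.12 ± 0.09 in BEC and 1.21 ± 0.09 in LEC (adjusted p = 4.9e-08 and 1e-08). The kinase gene Map2k2 fell by 1.04 in BEC and by 1.44 in LEC (SE 0.14, adjusted p = 1.7e-05 and 2.2e-07).

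**Figure D5:**
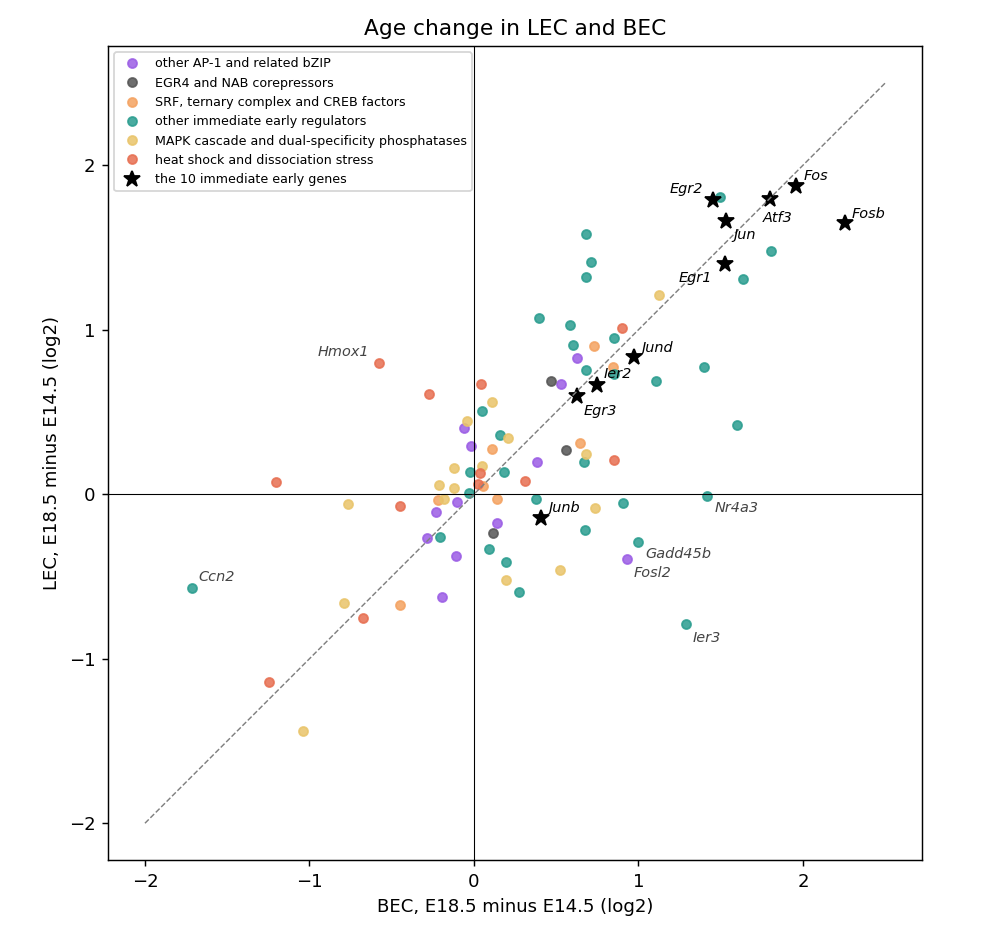
Change from E14.5 to E18.5 on the log2 scale in BEC (horizontal axis) and LEC (vertical axis), with stars for the 10 genes and coloured points for 83 genes of 6 related lists, and a dashed line where both changes are equal. Of the stars, 9 lie in the upper right and Junb lies at 0.41 in BEC and -0.14 in LEC, beside Ier3, Gadd45b, Nr4a3 and Fosl2 to the right of the line.

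Between LEC and BEC over the 3 ages, genes of the related lists lay on both sides. Over all genes 18.2% were called higher and 19% lower. Of the 32 further regulators, 10 were higher and 13 lower in LEC (median -0.07), with the orphan nuclear receptor gene Nr4a3 (1.73 ± 0.16) and Gadd45b (1.64 ± 0.08) higher and Gadd45g (-1.59 ± 0.08) lower (adjusted p = 2.6e-08, 4.7e-12 and 4e-12). Among zipper genes 4 were higher and 2 lower, with Maff (0.99 ± 0.10) and Batf (0.94 ± 0.07) higher (adjusted p = 1.1e-07 and 8.2e-10). Of the SRF group 2 were higher and 2 lower, with Mrtfb (-1.38 ± 0.06) and Srf (-0.75 ± 0.09) lower (adjusted p = 2.6e-13 and 1.1e-06). Of the kinase and phosphatase list 2 were higher and 6 lower, with Dusp5 higher (1.47 ± 0.12) and Spry4, an inhibitor of receptor signalling, lower (-2.07 ± 0.08; adjusted p = 3.7e-09 and 7.8e-14).

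Heat shock genes, which dissociation can also induce, moved in both directions. Of the 14 listed, 12 were measured, without Hspa1b and Hsp90ab1. From E14.5 to E18.5, 2 of 12 rose and 5 fell in BEC (median -0.12), where 13.3% of all genes were called higher and 17.3% lower. In LEC 3 rose and 2 fell (median 0.10), where 19.7% of all genes were called higher and 21.2% lower. The chaperonin gene Hspd1 fell by 1.25 in BEC and by 1.14 in LEC (SE 0.12, adjusted p = 2.2e-07 and 3.5e-07), and Dnajb4 rose by 0.90 ± 0.18 and 1.01 ± 0.18 (adjusted p = 0.00061 and 0.00013). At the step from E16.5 to E18.5 in LEC, 1 of the 12 rose and 1 fell, against 15.9% and 18.5% of all genes. These were Dnajb1 (0.59 ± 0.14, adjusted p = 0.003) and Hspd1 (-0.77 ± 0.12, adjusted p = 7.5e-05). The log2 of the summed level of the list, in which the brightest genes weigh most, was 14.066 to 14.226 at E14.5 in BEC. At E18.5 it was 13.82 to 13.983 there. In LEC it was 14.32 to 14.37 and then 14.202 to 14.436. Over the ages 7 of 12 were higher and 1 lower in LEC (median 0.33), against the 18.2% and 19% of all genes. The higher ones included Hmox1 (1.31 ± 0.08) and Hsph1 (1.25 ± 0.12; adjusted p = 4.5e-11 and 3.9e-08).

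Markers of other cell types moved with age as well, and their part in the members' rise was not tested. The shares of all genes called higher and lower from E14.5 to E18.5 were 13.3% and 17.3% in BEC, and 19.7% and 21.2% in LEC. In LEC, 11 of 12 macrophage genes rose from E14.5 to E18.5 (median 2.80) and 1 fell, and the log2 of their summed level was 10.893 to 10.981 at E14.5 and 12.778 to 13.444 at E18.5. In BEC 2 of the 12 rose and 2 fell, the summed level was 9.043 to 9.246 and then 9.023 to 9.456, and 4 of the 12 lay below the dim bound. Mural cell genes rose for 8 of 8 in BEC (median 1.58, summed level 9.174 to 9.316 and then 11.633 to 11.954). In LEC 3 rose and 3 fell, and the summed level was 8.989 to 9.125 and then 8.849 to 9.382. Keratinocyte and epithelial genes rose for 5 of 8 in BEC (summed level 8.192 to 8.489 and then 9.205 to 9.778) and for 6 of 8 in LEC (8.723 to 8.939 and then 10.707 to 11.415). Of 8 mast cell genes 3 rose in LEC, and 1 rose and 5 fell in BEC. Of 4 platelet genes 3 rose in LEC and 4 fell in BEC.

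The endothelial lists changed with age too, and not all in the direction of the members. Of all genes, 13.3% were called higher and 17.3% lower in BEC over this interval, and 19.7% and 21.2% in LEC. From E14.5 to E18.5, 6 of 7 lymphatic endothelial genes fell in BEC (median -1.75, log2 summed level 11.738 to 11.941 and then 10.748 to 10.946), and 4 of 7 rose in LEC (median 0.55). Of the 9 blood endothelial genes, 7 rose and 2 fell in LEC (median 1.17, summed level 9.958 to 10.285 and then 10.977 to 11.42), and 5 rose in BEC (median 0.51). Of the 8 pan-endothelial genes, 5 rose and 2 fell in LEC (median 0.36), and 4 rose and 1 fell in BEC (median 0.26). The part of these lists in the members' rise was not tested either.

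The same lists stand beside the higher Egr2 and Egr3 of LEC. All 12 macrophage genes (median 2.46) and all 8 mast cell genes (median 2.70) were higher in LEC over the 3 ages, and all 8 mural cell genes were lower (median -1.11). Of all genes, 18.2% were called higher and 19% lower. Of 8 keratinocyte and epithelial genes 6 were higher in LEC (median 0.86), with a median of 1.56 at E18.5. The mast cell list summed to 13.527 to 14.045 in LEC and 11.42 to 12.305 in BEC at E14.5 on the log2 scale. Whether these cells hold part of the Egr2 and Egr3 signal was not tested.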

How the data were processed

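Mouse LEC and BEC RNA of 18 samples was measured on Affymetrix Mouse Gene 1.0 ST arrays. The authors deposited log2 expression values, and the submitters' processing notes name RMA and oligo 1.54.1; joint normalization of the arrays is not given in the sources used here. Arrays have no read depth, so their number limits the precision. Of 35556 rows, 21789 had 1 gene symbol, 1621 several and 12146 were not listed. The brightest row per symbol was kept (19938 genes), with no filter on dim genes. A model of the 6 group means over the 18 arrays (limma 3.58.1, R 4.3.3; lmFit and eBayes without trend; 12 residual and 6.11 prior degrees of freedom) gave 13 contrasts, two-sided, adjusted by Benjamini-Hochberg within a contrast; intervals are 95%. The fit was tested on simulated data.

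The members and lists were chosen with earlier results of these data known. Of 87 genes in 6 related lists 83 were measured, and 83 of 91 markers. Per list and contrast, up to 3 called genes with the largest difference could be named, besides all members, the 5 genes most like Fos and Egr1 by Pearson r, and the genes labelled in the plot of age changes. Promoters are RefSeq's (GRCm38.p6). Alternatives were other scalings, filters, variance models, weights, row choices, a replicate block, fewer groups and each array left out.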

Additional observations from a re-analysis of the deposited data

Results flagged for a closer look

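The change from E14.5 to E18.5 differed between LEC and BEC by limma's test of the difference for 0 of the 10 members. Of the 32 further regulators, the difference was called positive for 4 and negative for 7. Of 16 kinase and phosphatase genes it was positive for 1 and negative for 3, and of 12 other zipper genes for 0 and 1. Of 12 heat shock genes it was positive for 2 and negative for 0. None was called in the SRF list or the EGR4 and NAB list. The 9 genes below are the called ones with the largest absolute difference, up to 3 per list. The differences are LEC change minus BEC change on the log2 scale, with adjusted p from limma over 19938 genes, of which 8.85% were called.

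The largest was that of Ier3, a stress and survival gene, at -2.08 ± 0.30 (adjusted p = 0.00015), from changes of -0.79 in LEC and 1.29 in BEC. Nr4a3 differed by -1.43 ± 0.38 (adjusted p = 0.025; -0.01 in LEC and 1.42 in BEC), a call lost without any of BEC E14.5 replicate 3, BEC E18.5 replicates 1 and 2, LEC E14.5 replicates 1 and 2 and LEC E18.5 replicate 3 (adjusted p = 0.052 to 0.072) and with all rows tested (adjusted p = 0.064). Fosl2 differed by -1.32 ± 0.24 (adjusted p = 0.0013; -0.39 and 0.93) and Gadd45b by -1.29 ± 0.21 (adjusted p = 0.00038; -0.29 and 1.00). The receptor signalling inhibitors Spry2 and Spry4 differed by -0.98 ± 0.16 (adjusted p = 0.00047; -0.46 and 0.52) and -0.82 ± 0.20 (adjusted p = 0.011; -0.08 and 0.74). The phosphatase gene Dusp2 differed by -0.71 ± 0.18 (adjusted p = 0.017; -0.52 and 0.19), lost without BEC E14.5 replicate 2 or LEC E14.5 replicate 1 (adjusted p = 0.053 each). Among the genes named here, the stress genes Hmox1 and Hsph1 lay in the other direction. Hmox1 differed by 1.37 ± 0.19 (adjusted p = 1e-04), with changes of 0.79 in LEC and -0.58 in BEC. Hsph1 differed by 1.28 ± 0.29 (adjusted p = 0.0072), with changes of 0.08 in LEC and -1.20 in BEC.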

How the results depend on the processing

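Of 130 differences of members, 63 were called, 9 of these lost the call in at least 1 setting, 17 others passed in at least 1, and 0 called ones changed sign. With 1 array left out, the members called numbered 5 to 7 for LEC against BEC over the ages (7 with all arrays), 3 to 4 at E14.5 (3), 3 to 5 at E16.5 (4) and 2 to 3 at E18.5 (2). They numbered 5 to 6, 7 to 9 and 9 to 9 for the steps and the whole interval in LEC, and 5 to 7, 8 to 8 and 9 to 10 in BEC. For the difference of the age changes over the whole interval they numbered 0 to 1, and 0 at each step. A common median and interquartile range gave 4 over the ages, 4 at E18.5 and 1 for the difference of age changes. At E14.5 a trended, robust variance gave 5 and array weights 5. At E18.5 quantile normalization, leaving out dim genes and the trended, robust variance each gave 4. For the difference of age changes these gave 1, 1 and 2, and a common median gave 1. The replicate block, the number within an age taken as litter, kept the counts of members called within 1.5 times; it lost Fos (adjusted p = 0.057) and Jun (adjusted p = 0.061) over the ages and passed Atf3 at E18.5 (adjusted p = 0.032). Deviations of same-numbered LEC and BEC samples correlated at -0.107 to 0.13 over 9 pairs, and the labels do not tie numbers to litters, so no pairs were assumed. Of 167 called differences of related genes, 35 lost the call in at least 1 setting. These 167 are the largest called ones, up to 3 per list and contrast, and the smaller calls were not followed. The fit of each cell type alone was chosen after seeing the data. Over all genes, counts moved by over 1.5 times at E18.5 with only the groups compared (6071 to 3707). For the step to E16.5 in LEC they moved with array weights (2749 to 4544) and without LEC E14.5 replicate 3 (1768) and, in another fit, with LEC E16.5 replicate 1 left out (1758). For that step in BEC they moved with array weights (1945 to 4022), without the E18.5 arrays (3318) and without BEC E14.5 replicate 1, 2 or 3 or BEC E16.5 replicate 2 (1155, 966, 1154 and 850). The difference of the age changes to E16.5 (524) moved with array weights (1215), with the E18.5 arrays or other groups left out (839), and to 310 to 326 on leaving out BEC E14.5 replicate 1, LEC E14.5 replicate 1, LEC E14.5 replicate 3 or, of LEC at E16.5, replicate 1. That from E16.5 (728) moved with array weights (395), with only the groups compared (351), without BEC E16.5 replicate 2 (472) and with replicate 1 of LEC at E16.5 left out (431).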
